A study of Rattus norvegicus with 42 samples.

Results

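Slow-muscle peaks are clusters of transcription start sites that were used far more in the control soleus, a slow postural muscle of the rat hindlimb, than in the control extensor digitorum longus (EDL), a fast muscle of the same leg. They were chosen from cap analysis of gene expression (CAGE), in which each sequenced tag marks the 5′ end of 1 capped RNA. For each of 9969 peaks outside the mitochondrial genome, tags were scaled to the library's sum of tags in peaks (CPM, counts per 1000000 tags), and a peak was taken when the mean of the 3 control soleus libraries plus 1 CPM was more than 4 times the mean of the 3 control EDL libraries plus 1 CPM. The rule took 420 peaks, 4.21% of all, and the same rule turned round took 331. The 42 libraries came from 21 mature Wistar rats, 3 per group, with a soleus and an EDL library from each rat. Control rats were not suspended. Rats of groups D1, D3 and D7 had their hindlimbs unloaded by tail suspension for 24 hours, 3 days and 7 days. Rats of groups R1, R3 and R7 were unloaded for 7 days and then walked again for 24 hours, 3 days and 7 days. The series asks how a slow and a fast muscle change through disuse and recovery, and the question followed here is whether the soleus lost its slow starts while the load was off and whether the EDL gained them.

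Slow muscle consists largely of type I fibers, which contract slowly, resist fatigue and rely on oxidative metabolism, whereas fast muscle consists largely of type II fibers that contract quickly and tire sooner. Each fiber type uses its own isoforms of the myosin heavy and light chains and of the troponin subunits, encoded by separate genes with their own start sites. Loading by body weight keeps the soleus slow, and unloading is known to shift it toward fast isoforms. The peaks are given by position in the Rnor_6.0 assembly used in the deposited files, from the first to the last base of the peak. No annotation or genome of that assembly was used here, so peaks are not given gene names, the markers of fiber and cell types were not looked up, and no sequence is printed. The muscles were sequenced whole, so fewer cells of a type and less RNA per cell cannot be told apart in any value below.

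The values that chose the peaks are a description and not a test. The control soleus mean ran from 3.48 to 14926 CPM over the 420 peaks with a median of 19.2, and the control EDL mean from 0 to 809 CPM with a median of 0.919. The ratio was 4.01 at the lowest, 7.93 in the median peak and 132 at the highest, with 167 peaks over 10-fold and 32 over 40-fold. In 410 peaks (97.6%) all 3 control soleus libraries were above all 3 control EDL libraries, as they were in 36.8% of all peaks. Just inside the threshold were chr8:71937297-71937521 at 4.01, chr1:242765592-242765984 at 4.03 and chr5:29601666-29601785 at 4.05. Just outside were chr20:29199107-29199306 at 4.0, chr3:114087213-114087348 at 3.99 and chr12:39420120-39420348 at 3.99. The last of the inside peaks stood at 117 CPM in control soleus and chr3:114087213-114087348 at 597, so peaks of high level lay on both sides.

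A few peaks carried most of the tags. The 10 highest took 66.5% of the CPM of all 420 in control soleus, and the highest alone, chr12:39958724-39959368 (minus strand), took 17.6%. In control soleus it held 14147, 14669 and 15962 CPM in rats U6, U7 and U8, against 396, 537 and 571 CPM in the EDL of the same rats. The next was chr1:72889011-72889390 (plus strand), with 7925, 6810.0 and 14148 CPM in control soleus and 31.4, 194 and 224 in control EDL. Its soleus libraries spread further than those of the first peak, and its EDL libraries differed by several fold among themselves. The other 8 had control soleus means (± SD, n = 3) of 5064 ± 258 CPM for chr8:55178466-55179112, 5044 ± 903 for chr8:119030685-119031041, 4835 ± 768 for chr2:88135192-88135585, 4078 ± 1007 for chr13:52624643-52625420 and 3746 ± 687 for chr16:7291921-7292342. For chr1:89007946-89008447, chr17:66397373-66397794 and chr2:189423299-189423727 they were 3384 ± 759.6, 3258 ± 893 and 2338 ± 634 CPM. The ratio of the muscles in control ranged among these 10 peaks from 4.18 at chr1:89007946-89008447 to 80.8 at chr2:189423299-189423727, so the highest starts were not all close to silent in the fast muscle.

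The slow-muscle peaks were unevenly placed in the genome. Chromosome 15 held 69 of them, 21.6% of the peaks on that chromosome, and chromosome 12 held 30, or 10.3%, where 4.21% of all peaks were slow-muscle peaks. Chromosome 1 with 54 (4.42% of its peaks) and chromosome 2 with 39 (5.27%) lay near the share over all peaks. A deposited peak on the same strand lay within 5000 nt of 50.5% of the slow-muscle peaks and of 25.4% of the other peaks. Exactly 105 of the 420 (25%) fell into 9 arrays, runs of 5 or more slow-muscle peaks on 1 strand with gaps of at most 5000 nt, and every deposited peak of that strand inside these 9 spans was a slow-muscle peak. The peaks of an array share a strand and a stretch of the genome and are not independent of each other. The largest array, chr15:33634468-33657899 on the minus strand, had 36 peaks over 23432 nt, and the second, chr15:33607830-33627846 on the same strand, had 18. The others were chr12:39587205-39603279 with 12 peaks, chr1:72889011-72899711 with 10, chr2:88126565-88135585 with 7, chr2:189436721-189442606 and chr16:7291921-7295390 with 6 each, and chr13:52631805-52637270 and chr8:119030685-119036962 with 5 each.

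The arrays differed in how the tags were spread over their peaks. On chr1, chr2:88126565-88135585, chr8 and chr16 the 5′-most peak held 92.7%, 81.8%, 97.2% and 96.0% of the array's control soleus CPM, and these 5′-most peaks are 4 of the 10 highest listed above. In the EDL controls the same peaks held 92.7%, 79.7%, 96.3% and 96.8%, and in soleus at R1 92%, 88.9%, 97.4% and 95.3%, so the 5′-most peak held most of the tags in both muscles and in both phases of soleus. In the chromosome 15 arrays the CPM was spread over the whole span, and the highest peak held 10.1% of the array of 36 and 18.3% of the array of 18. In the other 3 arrays no peak held most of the tags: the highest was the 3′-most peak of the chr12 array with 31.5%, the 5′-most of the chr13 array with 28.3%, and the second from the 5′ end of chr2:189436721-189442606 with 38.1%. The summed CPM of the array of 36 was 2584, 3068 and 1900.2 in the 3 control soleus libraries and 8.03, 53.9 and 42.6 in the 3 control EDL libraries. The peaks of this array thus summed to 72.2 times the EDL level in control soleus, and those of the array of 18 to 78.2 times. A further 12 slow-muscle peaks lay on the strand opposite to an array and overlapped its span, 4 of them opposite the array of 36. CAGE tags carry their strand, so these peaks were counted apart from the array.

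**Figure D1:**
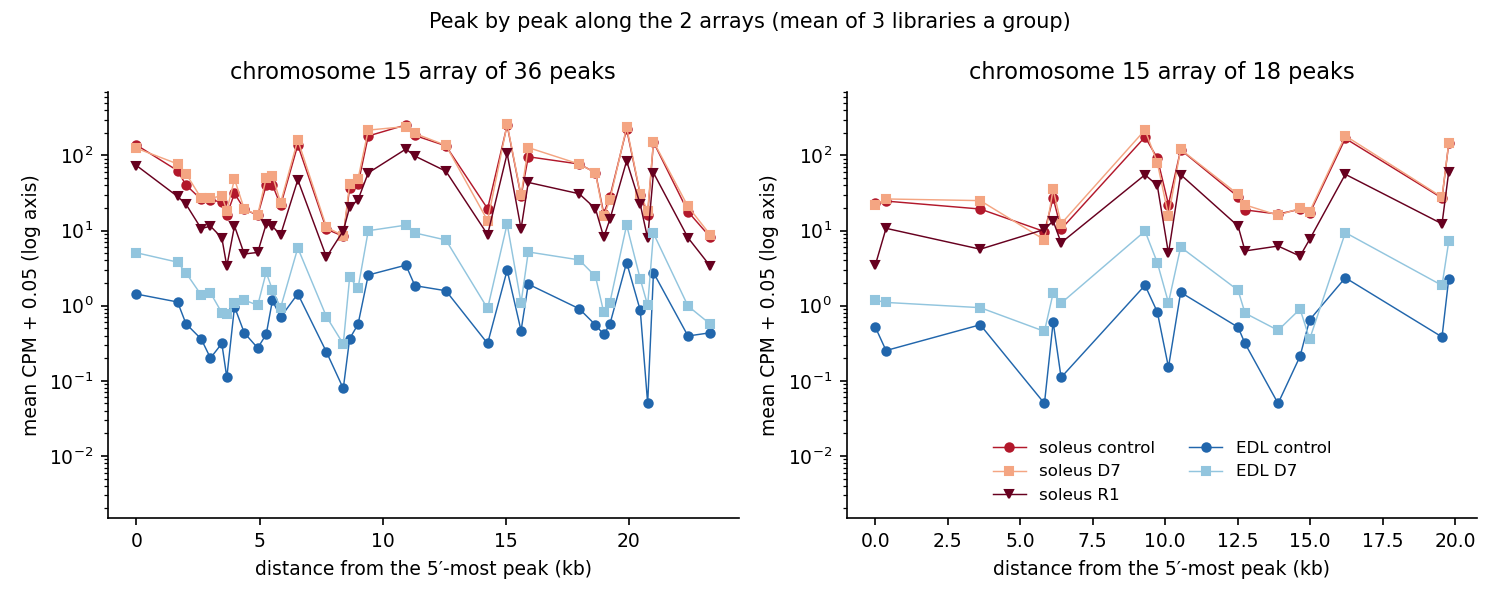
Mean CPM (log axis, 0.05 added) of each peak of the 2 chromosome 15 arrays against its distance in kb from the 5′-most peak, for control, D7 and R1 soleus and for control and D7 EDL, 3 libraries a group. The soleus lines for control and D7 run together, the R1 line runs below them along most of both arrays, and the EDL lines lie far lower with D7 above control at most peaks.

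Some values rest on shared or single sources. Per the study's methods, reads that matched up to 20 places were at first allowed. Tag numbers lay within 12% of each other over the libraries in 29 slow-muscle peaks that form 20 pairs, among them pairs with 1 peak in each chromosome 15 array and the pair chrX:153491557-153491816 and chrX:154917750-154918009. When the 2 peaks of a pair were laid over each other base by base, 86.3% to 99.2% of the tags matched in position in 16 pairs, and the split of tags between these peaks is uncertain. In the other 4 pairs, all on chromosome 15, 14.9% to 44.3% matched, so that the numbers alone were alike. In 16 peaks 1 control soleus library held over 80% of the CPM of the 3, in 14 of them rat U7 and in 2 rat U8. The 14 peaks summed to 1789 CPM in U7, against 74.6 in U6 and 67.3 in U8, and were next highest in the D3 rat U11 at 1390 CPM. The other D3 rats, U9 and U10, held 234 and 372 CPM, so the D3 level of these peaks rests largely on U11. None of the 14 was called higher in soleus in all 6 later phases. At D3 9 were called higher, at R1 3 and at D1 1, where 4.92%, 18.4% and 5.27% of all peaks were called higher. One of them, chr1:162385480-162385701 (minus strand), was among the 3 peaks with the smallest mean ratio of the muscles after control, with 1.18, 74.1 and 3.18 CPM in the 3 control soleus libraries.

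The share of each library's tags that fell in the 420 peaks followed the phases differently in the muscles. In control soleus it was 7.89%, 7.59% and 9.92% of the tags in peaks (mean 8.47% ± 1.27, SD, n = 3). It was 6.61% ± 0.588 at D1, 6.24% ± 1.07 at D3 and 6.99% ± 1.52 at D7, then 8.60% ± 0.701 at R1, 7.05% ± 0.448 at R3 and 8.45% ± 1.04 at R7. The D1 and D3 libraries all lay below the 3 controls, and the D7 libraries at 6.50%, 8.70% and 5.78% overlapped them. The share at R1 does not describe the median peak. The median CPM of the 420 peaks was 10.1 to 13.1 in the R1 libraries and 17.7 to 20.1 in the control libraries of soleus. Part of the R1 share came from chr8:55178466-55179112, whose rise at R1 is given below. In control EDL the share was 0.562%, 0.529% and 0.564%. All 18 later EDL libraries were above it, from 0.686% to 2.48%, with means of 0.921% ± 0.327 at D1, 1.54% ± 0.146 at D3 and 1.88% ± 0.531 at D7 during unloading and 1.33% ± 0.447 at R1, 0.941% ± 0.234 at R3 and 0.804% ± 0.0310 at R7 during recovery. Even the highest EDL library, rat U1 at D7, stayed below the lowest soleus library, 5.22% in rat U10 at D3. Since both control groups chose the peaks, a fall in soleus and a rise in EDL are partly built in, which is taken up below with control rats that were kept out of the choice.

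**Figure D2:**
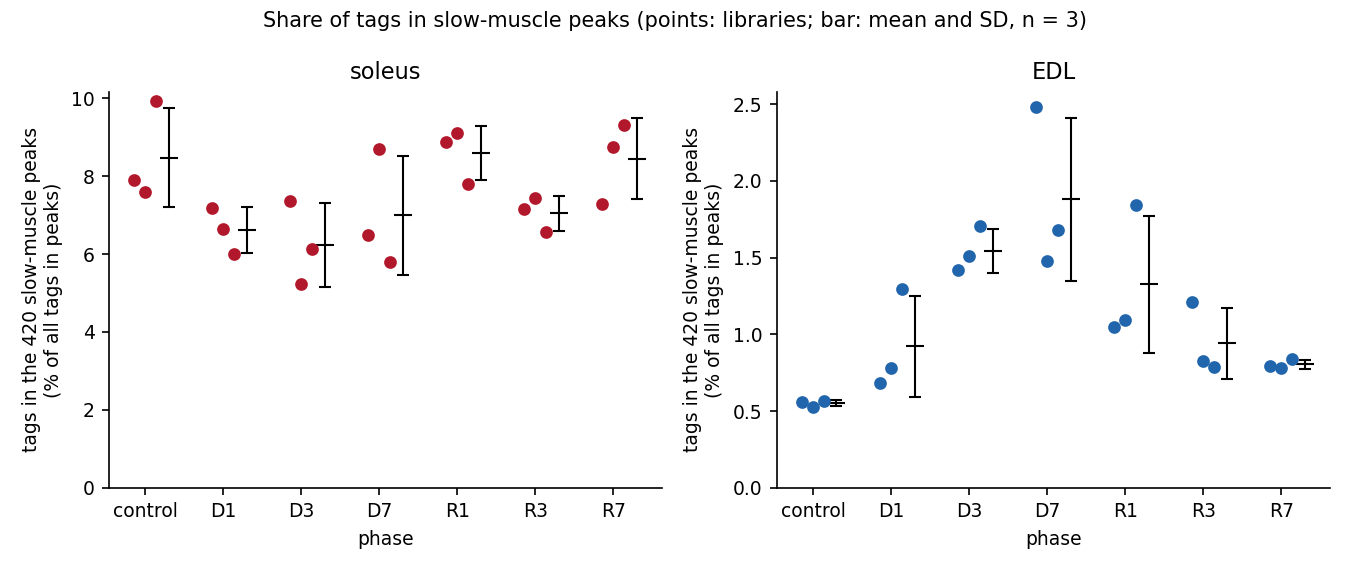
Tags in the 420 slow-muscle peaks as a percent of all tags in peaks, for each library of soleus (left) and EDL (right, with its own axis) by phase, with the mean and SD of 3 libraries. Soleus lies between 5.22% and 9.92% throughout, and EDL climbs from about 0.552% in control to 1.88% at D7 and returns to 0.804% at R7.

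Whether the peaks stayed higher in soleus was tested in the later phases, whose libraries did not enter the rule. The median ratio of soleus to EDL on the log2 scale (mean CPM plus 1) was 2.99 in control and 2.24, 2.37 and 2.21 in D1, D3 and D7, then 2.04, 2.50 and 2.54 in R1, R3 and R7, beside a median over all peaks of 0.15 to 0.48. The peaks over 4-fold numbered 227, 249 and 231 in the unloading phases and 214, 264 and 267 in the recovery phases, in order. Of all peaks 3.07%, 3.53% and 2.94% were over 4-fold in the unloading phases and 12.99%, 3.43% and 5.17% in the recovery phases. The share of all peaks was thus highest at R1, where the count of slow-muscle peaks was lowest, so that count is not directly comparable with the others. A peak was called when it differed by more than 2.38-fold in either direction and edgeR's quasi-likelihood test, adjusted by Benjamini-Hochberg, gave p under 0.05. All 420 peaks were tested, although 296 of them passed the filter on low counts in EDL alone, so the others entered the test through soleus, where the rule had chosen them to be high. At D1 272 were called higher in soleus and 14 lower, where 5.27% of all peaks were called higher and 7.14% lower. At D3 the counts were 290 and 6 (4.92% and 6.52% of all peaks), and at D7 269 and 2 (4.49% and 5.60%). At R1 they were 286 and 3, with 18.4% and 14% of all peaks called, at R3 315 and 0 (5.39% and 6.38%), and at R7 341 and 0 (9.18% and 7.49%). DESeq2 also called 0 lower at R3 and at R7, and 365 and 364 peaks had an unadjusted p under 0.05 in either direction in those phases. The small numbers called lower moved with single libraries. The 14 at D1 were 8 without EDL U25, the 6 at D3 were 2 without soleus U9 and 3 without soleus U11, and the 3 at R1 were 0 without soleus U18 or EDL U21. The 2 at D7 were 1 without EDL U1 or any 1 of the soleus libraries, and 4 with the rat as a block. Without TMM scaling they were 13, 4, 1 and 0 at D1, D3, D7 and R1. In all 6 phases 160 peaks were called higher, in 5 phases 49, and in none 11. The shares of all peaks called higher in as many phases were not counted.

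**Figure D3:**
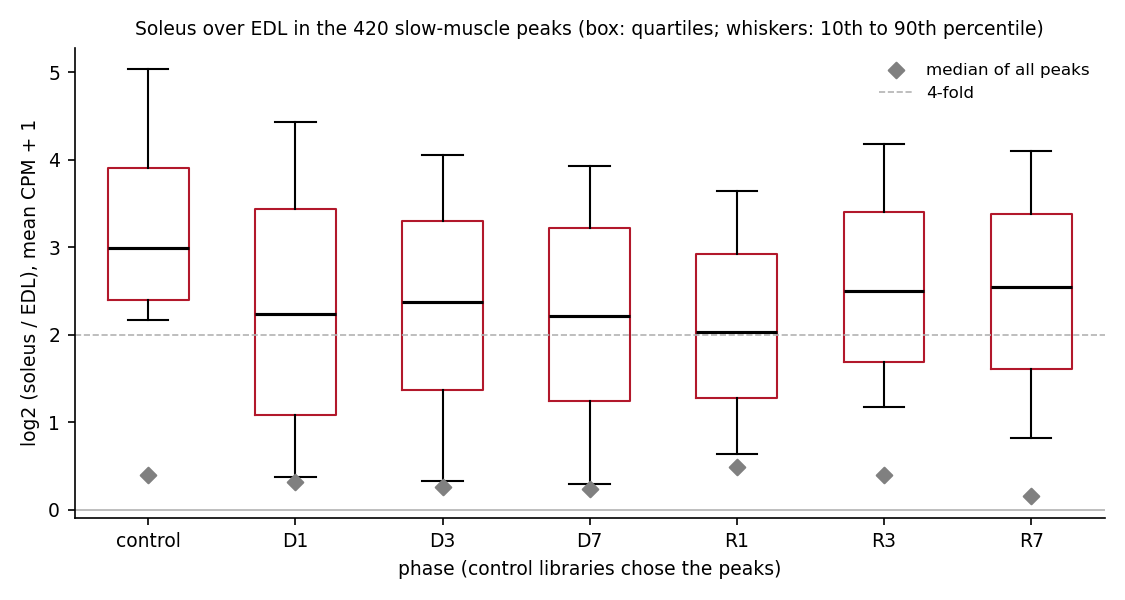
The log2 ratio of soleus to EDL (mean CPM plus 1) of the 420 slow-muscle peaks in each phase, with quartile boxes and whiskers from the 10th to the 90th percentile. Grey diamonds give the median of all peaks and the dashed line 4-fold. The control box, which the rule fixed, has its median at 2.99, and the later medians lie between 2.04 and 2.54.

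Most array peaks were called higher in soleus in each later phase. Of the 105 array peaks 103, 105, 101, 93, 97 and 103 were called higher in soleus from D1 to R7 in order, against 169, 185, 168, 193, 218 and 238 of the other 315, and none of the 105 was called lower in any phase. Of the 7 peaks of the array chr2:88126565-88135585, however, 5 were called higher at D7, 0 at R1 and 1 at R3. Over all peaks 4.49% to 18.4% were called higher in these phases. Of the 105 array peaks 63 passed the filter on low counts in EDL alone, and of the other 315 peaks 233. Those that did not pass entered the test through soleus, where the rule had chosen them to be high, which favours these calls. The array peaks and the rest were not matched in level or in control ratio, and the difference between these shares was not tested. The peaks of at least 10 CPM with the largest mean ratio after control were chr7:2912306-2912737 (minus strand), chr2:189423299-189423727 (plus strand) and chr8:58431175-58431404 (plus strand). At D7 the first of them held 1011, 1298 and 527 CPM in soleus and 339, 55.7 and 89.4 in EDL (log2 fold change 2.27 ± 0.64 (SE), adjusted p = 0.012). The EDL library of rat U1 stood above those of U2 and U3, and the call was lost without EDL U2 or U3, with log2 fold changes of 2.0 and 1.93. chr2:189423299-189423727 held 2798, 4303 and 2120.0 CPM in soleus and 328, 72.4 and 126 in EDL at D7 (log2 fold change 3.86 ± 0.62 (SE), adjusted p = 2.48e-05), and at R1 584, 1908 and 1588 and 66.5, 97.1 and 200.5 (log2 fold change 2.82 ± 0.60 (SE), adjusted p = 0.000248). The groups did not overlap in either phase. Among the 10 highest peaks, chr12:39958724-39959368, chr8:55178466-55179112, chr1:89007946-89008447 and chr17:66397373-66397794 were not called different between the muscles at D7. For the first of these the soleus libraries held 6407, 8623 and 6094 CPM and the EDL libraries 4534, 2749 and 1162 at D7 (log2 fold change 0.93 ± 0.56 (SE), adjusted p = 0.38). At D1 it had been called higher (log2 fold change 3.83 ± 0.63 (SE), adjusted p = 2.31e-05), and it was again at R3 (log2 fold change 3.56 ± 0.62 (SE), adjusted p = 5.56e-05) and R7 (log2 fold change 3.71 ± 0.62 (SE), adjusted p = 2.86e-05).

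In a small group of peaks the order of the muscles turned over. The EDL mean was at or above the soleus mean in 31, 33 and 28 of the 420 peaks in the unloading phases and 9, 2 and 9 in the recovery phases, in order, and 20 peaks were called lower in soleus in at least 1 phase. These shares were not counted over all peaks. The 14 called lower at D1 are 3.33% of the slow-muscle peaks, where 7.14% of all peaks were called lower. Of these 14, 12 were called higher in soleus at R1, 11 at R3 and 12 at R7, where 18.4%, 5.39% and 9.18% of all peaks were called higher. All 14 had a lower mean in soleus and a higher mean in EDL at D1 than in control. The rule took peaks high in control soleus and low in control EDL, so both directions are partly built in. These changes were not measured again with control rats kept out of the choice. The clearest case was chr8:81963512-81963882 (plus strand). In soleus it held 30, 23.5 and 25.3 CPM in control, 1.1, 2.37 and 0.473 at D1, 44.6, 41.4 and 13.5 at D7 and 736, 775 and 402 at R1. In EDL it held 3.32, 0.609 and 0.548 CPM in control, 48.9, 160.0 and 51.9 at D1, 83.2, 63.6 and 29.4 at D7 and 2.01, 19.9 and 6.22 at R1. Soleus was lower at D1 (log2 fold change -6.42 ± 0.95 (SE), adjusted p = 5.86e-06) and at D3 (log2 fold change -2.83 ± 0.78 (SE), adjusted p = 0.01), not called different at D7, and higher at R1 (log2 fold change 5.43 ± 0.90 (SE), adjusted p = 1.12e-05). Neither muscle's libraries overlapped the other's at D1 or at R1. chr13:51034039-51034487, with the second smallest mean ratio after control, went the same way, from lower in soleus at D1 (log2 fold change -2.89 ± 0.90 (SE), adjusted p = 0.0223) to higher at R1 (log2 fold change 2.87 ± 0.88 (SE), adjusted p = 0.00807). chr9:38090146-38090609, with the smallest, held 1.46, 1.42 and 1.5 CPM in soleus and 0.59, 1.19 and 20.4 in EDL at D1 (log2 fold change -2.62 ± 0.81 (SE), adjusted p = 0.0214), where 1 EDL library, of rat U26, stood far above the other EDL libraries.

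The 2 peaks called lower in soleus at D7 were chr15:4069082-4069615 (plus strand) and chr17:19056765-19056962 (plus strand), and the 3 at R1 were chr5:148528613-148529082, chrX:106774783-106775086 and chrX:106776199-106777021 (all plus strand). Those other than chr15:4069082-4069615 were named after their values were seen. chr15:4069082-4069615 fell in soleus from 51.8, 43.8 and 109.6 CPM in control to 3.16, 4.59 and 1.32 at D7 (log2 fold change -4.62 ± 0.74 (SE), adjusted p = 0.0165), with 3.11, 3.98 and 6.22 at D1, and stood at 46.6, 71.2 and 56.2 at R1 and 277, 432 and 89.8 at R7. In EDL it held 1.31, 0.914 and 0.914 CPM in control and 20.3, 5.25 and 6.1 at D7. The D7 soleus libraries were below both the control soleus and the D7 EDL libraries (log2 fold change -2.06 ± 0.65 (SE), adjusted p = 0.0295 against EDL). The call against EDL was lost without soleus U1, U2 or U3 or without EDL U1, with log2 fold changes of -2.09, -2.39, -1.75 and -1.18, and without TMM scaling at -1.75. The call against control was lost without control U8 or any D7 rat, with log2 fold changes from -4.92 to -4.19. The pair on chromosome X was called lower in soleus in no other phase, with log2 fold changes of -1.65 (adjusted p = 0.00481) and -1.63 (adjusted p = 0.0472). The first of that pair had soleus means of 465 CPM in control, 155 at D7, 39.5 at R1 and 869 at R7.

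**Figure D4:**
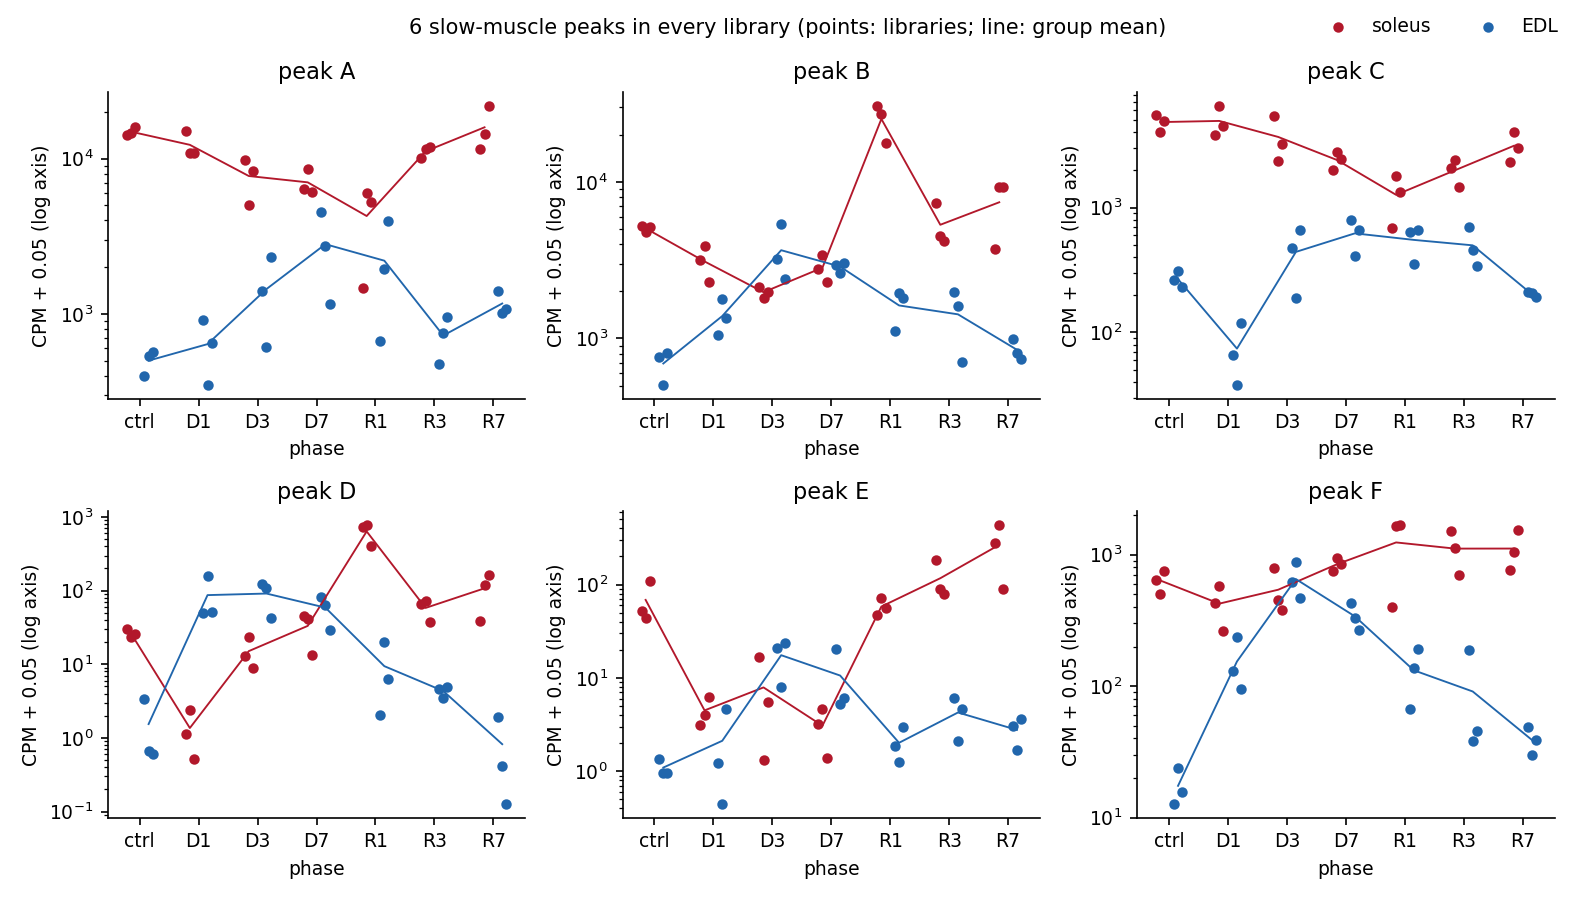
CPM (log axis, 0.05 added) of 6 slow-muscle peaks in every library of soleus and EDL by phase, with lines through the group means. Peak A is chr12:39958724-39959368, B chr8:55178466-55179112, C chr2:88135192-88135585, D chr8:81963512-81963882, E chr15:4069082-4069615 and F chr9:119328971-119329559. The group means of soleus and EDL cross in B, D, E and F during unloading and come close without crossing in A and C, and at R7 every soleus point lies above every EDL point in all 6.

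Against control, few slow-muscle peaks were called in soleus during unloading. The median change against control was -0.48 at D1, -0.26 at D3 and 0.02 at D7 on the log2 scale of CPM plus 1, beside -0.15, 0.08 and 0.13 over all peaks. With TMM-scaled CPM the D7 median turned to -0.17, and the D1 and D3 medians were -0.32 and -0.36. Both muscles' controls entered the rule, which favours peaks whose control soleus libraries ran high. Calls lower than control are favoured in the same way in soleus in every later phase, and the calls were not made again with controls kept out of the choice, so their direction is a description. For the medians, control rats were left out in turn: peaks were chosen with 2 rats (486 without U6, 430 without U7 and 376 without U8) and measured against the third. In the rat left out, 67.7%, 76.3% and 88.8% of these peaks were over 4-fold higher in soleus. Measured in this way the medians were -0.33, -0.29 and -0.34 at D1, between -0.13 and -0.10 at D3, and 0.11, 0.17 and 0.13 at D7, each nearer to 0 than with all 3 controls at D1 and D3. Against U6, U7 and U8 in turn, the medians over all peaks were -0.04, -0.08 and -0.20 at D1. They were 0.20, 0.15 and 0.03 at D3, and 0.24, 0.21 and 0.07 at D7. At D7 the slow-muscle peaks thus lay below all peaks against U6 and U7 and above them against U8. At D1 38 of the 420 peaks were called lower in soleus than in control and 0 higher, where 1.12% of all peaks were called lower and 0.853% higher (1.97% in either direction). At D3 7 were called lower and 1 higher (0.315% and 0.417% of all peaks, 0.732% together), and at D7 2 and 0 (0.0508% and 0.0711%, 0.122% together). None of the 105 array peaks was among them. The peak higher at D3 was chr2:104744095-104744592 (log2 fold change 1.28, adjusted p = 0.0471), named after its values were seen, and without TMM scaling 6 were lower and 0 higher at D3. At an unadjusted p under 0.05 there were 126, 89 and 87 peaks in either direction at D1, D3 and D7, and DESeq2 called 2, 1 and 3 higher and 58, 26 and 18 lower.

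These counts were small and moved with single libraries and with the sequencing lane. All control libraries were sequenced in lane 1, together with 1 later library, soleus U24 at D1, so lane and phase cannot be told apart in the comparisons with control. With lane as a block the called peaks were 1 at D1, 0 at D3 and 0 at D7. The D1 library of lane 1 had a share of 7.18% of its tags in the slow-muscle peaks and a median change of -0.46 against the 3 controls, beside -0.20 over all peaks. At D1 the count was 16 without control U8, 17 without D1 rat U24 and 13 without D1 rat U25. At D3 it was 0 without control U6 or U8, 1 without D3 rat U9 or U10 and 4 without U11. At D7 it was 1 without control U7 and 0 without control U8 or any D7 rat. The 3 largest falls in soleus at D7 among peaks of at least 10 CPM in control were chr1:50446338-50446654 (plus strand), chr15:4069082-4069615 and chr2:143656622-143656940 (plus strand). The first held 5.39, 23.6 and 48.6 CPM in control and 0.197, 0.96 and 1.59 at D7 (log2 fold change -5.01 ± 0.86 (SE), adjusted p = 0.0216), and was at 36.4, 46.4 and 19.4 at R7. This call was lost without control U7 or U8 or any D7 rat, with log2 fold changes from -5.51 to -4.26. The last held 7.3, 106 and 49.3 in control and 6.91, 6.08 and 3.17 at D7, was not called, and reached 2102, 581 and 14.4 CPM at R7.

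The highest peaks followed separate courses in soleus. chr12:39958724-39959368 held 15144, 10819 and 10870.2 CPM at D1, 9783, 5064 and 8358 at D3 and 6407, 8623 and 6094 at D7. In recovery it held 1479, 6057 and 5286 CPM at R1, 10109, 11479 and 11884 at R3 and 11512, 14399 and 21854 at R7. From D3 to R3 all its libraries lay below the controls, and the difference was called at R1 (log2 fold change -2.12 ± 0.41 (SE), adjusted p = 0.000786). chr1:72889011-72889390 held 10591, 14873 and 8226 CPM at D7, overlapping the control libraries, and 3410.0, 5913 and 4955 at R1 (log2 fold change -1.30 ± 0.32 (SE), adjusted p = 0.00418). chr16:7291921-7292342 was not called in any phase and held 4339, 5094 and 2756 CPM at D7 and 2355, 5213 and 4463 at R1. chr2:88135192-88135585 held 1983, 2772 and 2446 CPM at D7 and 687, 1779 and 1328 at R1 (log2 fold change -2.25 ± 0.39 (SE), adjusted p = 0.000287), and its libraries at D7, R1 and R3 were all below the control range.

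In EDL the median slow-muscle peak was above its control level in all 6 later phases, but at R3 and R7 not clearly more than all peaks were. The median change against control was 0.20 at D1, 0.55 at D3 and 0.84 at D7, then 0.51 at R1, 0.23 at R3 and 0.31 at R7, beside -0.08 to 0.26 over all peaks. Measured against control rats that had not chosen the peaks, the medians were 0.15 to 0.28 at D1, 0.45 to 0.71 at D3 and 0.73 to 0.92 at D7. They lay on both sides of the medians taken with all 3 controls. Against U6, U7 and U8 in turn, the D7 medians of 0.92, 0.73 and 0.90 stood beside 0.14, 0.37 and 0.39 over all peaks. The R1 medians were 0.56, 0.45 and 0.52, beside 0.075, 0.32 and 0.31. At R3 they were 0.38, 0.23 and 0.20 beside 0.0058, 0.24 and 0.22, and at R7 0.39, 0.27 and 0.29 beside 0.070, 0.32 and 0.32, so against U7 and U8 the slow-muscle peaks lay below all peaks at both. Single libraries also spread widely: measured against the 3 controls, the D7 libraries had medians of 0.34, 0.67 and 1.20, which overlapped those at D3 (0.21 to 0.74) and at R1 (0.26 to 0.73). Without D7 rat U1 the median fitted log2 fold change of the tested peaks was 1.05 at D7 in place of 1.39, beside 1.01 at D3. A larger pseudocount weighs low peaks less: with 5 CPM added in place of 1, the D7 median was 0.37 beside 0.17 over all peaks, and the R7 median 0.11 beside 0.12.

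**Figure D5:**
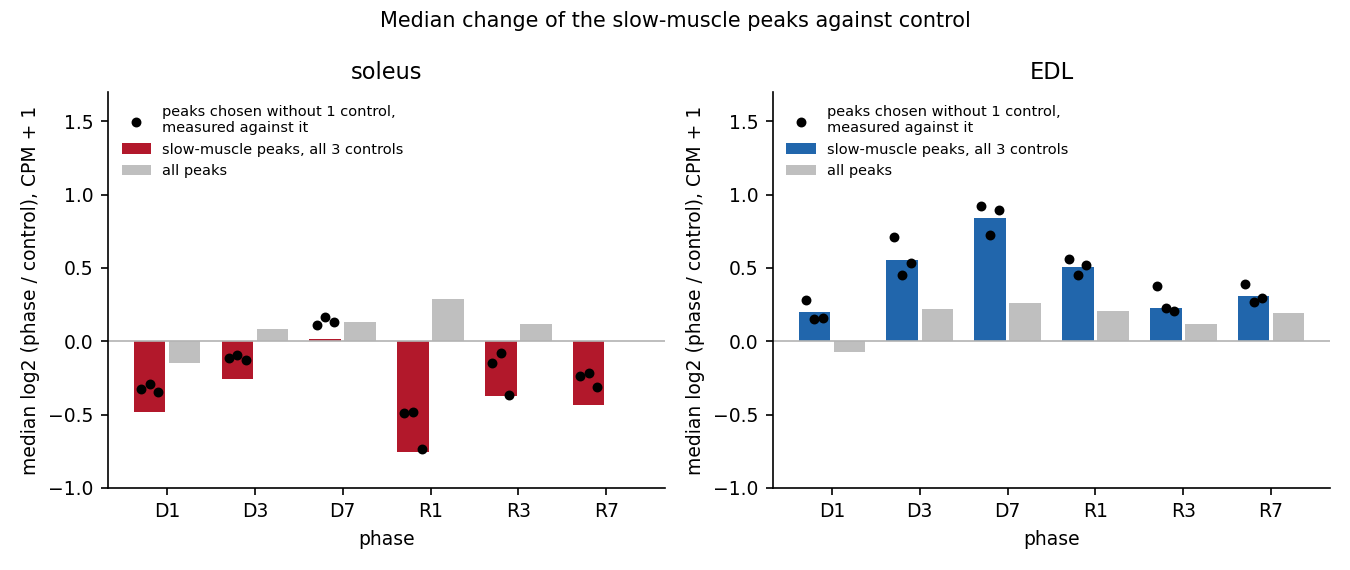
Median log2 change against control (mean CPM plus 1) of the 420 slow-muscle peaks (coloured bars) and of all peaks (grey bars) by phase, in soleus (left) and EDL (right). Black points are peaks chosen with 2 control rats and measured against the third. In soleus the points lie above the bars, with R1 the lowest phase, and in EDL they lie around the bars, which reach 0.84 at D7.

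In EDL 296 of the 420 peaks passed the filter on low counts and were tested, and few of these were called. The EDL controls helped choose the peaks for being low, which favours calls above control here. At D1 25 were called higher than control and 3 lower, where 1.92% of all peaks were called higher and 1.16% lower (3.07% together). At D3 the counts were 32 and 2 (0.963% and 0.300%, 1.26% together), and at D7 26 and 0 (0.599% and 0.492%, 1.09% together). A set of 12 peaks was higher at D1, D3 and D7. These 3 comparisons share the control EDL libraries, and the share of all peaks called higher in all of them was not counted. At R1, R3 and R7 0 peaks were called by edgeR, as were 0% of all peaks, while 82, 51 and 28 of the 296 had an unadjusted p under 0.05, and DESeq2 called 7, 11 and 0. For D7 DESeq2 called 56 higher and 0 lower, and 135 had an unadjusted p under 0.05. The 5 calls lower in EDL were chr2:88135192-88135585, chr3:51007665-51007970 and chr4:14002946-14003254 at D1, and chr4:14002946-14003254 and chr5:148528613-148529082 at D3, of which all but chr2:88135192-88135585 were named after their values were seen. With lane as a block 2 peaks were called at D1 and 0 at D3 and D7, and no later EDL library shared a lane with the EDL controls. The D1 count was 12 without control U6, 15 without control U8 and 11 without D1 rat U25. At D3 it was 15 without control U6, 4 without control U7, 10 without control U8, 13 without D3 rat U9 or U10, and 52 without U11. At D7 it was 4 without control U6, 9 without control U7 or U8 and 8 without D7 rat U1, and at R3 it was 9 without R3 rat U5.

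The 3 peaks that rose most in EDL at D7, among those of at least 10 CPM in control soleus, were chr8:81963512-81963882, chr9:119328971-119329559 (minus strand) and chr5:154109163-154109434 (plus strand). chr9:119328971-119329559 held 12.7, 23.8 and 15.7 CPM in control EDL, 131, 236 and 95.3 at D1, 616, 873 and 468 at D3, 427, 327 and 265 at D7, 66.4, 137 and 193 at R1 and 48.5, 29.9 and 38.8 at R7. Every unloaded EDL library stood above every control (log2 fold change 4.07 ± 0.68 (SE), adjusted p = 0.0102 at D7). In soleus it held 646, 505 and 758 CPM in control and 795, 451 and 379 at D3, so that the muscles overlapped at D3. chr5:154109163-154109434 went from 0.611, 0.609 and 1.64 CPM in control EDL to 42.6, 13.1 and 35.1 at D7 (log2 fold change 4.67 ± 0.83 (SE), adjusted p = 0.0114) and back to 0.752, 2.34 and 9.39 at R7. chr8:81963512-81963882 changed by 4.96 on the log2 scale at D7 (adjusted p = 0.0188). The D7 calls of chr8:81963512-81963882 and chr5:154109163-154109434 were lost without control U6 or U7, that of chr8:81963512-81963882 also without control U8 or D7 rat U1, and that of chr9:119328971-119329559 without control U6. Of the 10 highest peaks, chr8:55178466-55179112 was called higher in EDL at D3, from 761, 507 and 808 to 3236, 5379 and 2389 CPM (log2 fold change 2.17 ± 0.46 (SE), adjusted p = 0.0224). chr13:52624643-52625420 was called at D7, from 31.3, 73.7 and 95.2 to 1190.4, 306 and 251 CPM (log2 fold change 2.79 ± 0.65 (SE), adjusted p = 0.0419), with rat U1 highest, and this call was lost without any 1 of the controls or without rat U1 or U2. At chr1:72889011-72889390 the D7 libraries held 1414, 292 and 333 CPM and at chr16:7291921-7292342 967, 311 and 281, again with rat U1 highest, and neither was called.

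In EDL the mean summed CPM of each array was higher at D7 than in control, although 1 of the 63 array peaks tested was called higher (0.599% of all peaks). The EDL controls helped choose these peaks for being low, so a rise over them is partly built in. The sums were not measured again with control rats kept out of the choice, and no such sum was taken over other peaks. The summed CPM of the chromosome 15 array of 36 was 63.2, 33.4 and 154 at D3, 224, 72.1 and 82.4 at D7 and 19.8, 50.7 and 36.7 at R3. Its D7 mean was 3.62 times that of control and rat U1 was the highest at D7. The chr16 array rose to 8.06 times its control level at D7 (23.2, 93.8 and 87.4 CPM in control and 1019.5, 334 and 294 at D7), with no overlap between the groups. Over the 9 arrays the mean D7 EDL sum was 2.24 to 8.06 times control, and the D7 soleus sum was 3.91 to 29.8 times the D7 EDL sum. Rat U1 was the highest of the D7 EDL libraries in all 9 arrays, so the size of these rises rests largely on it. The lowest rise was that of the chr12 array, where the groups overlapped. Its EDL sums were 2.27, 11.6 and 12.6 CPM in control and 35.2, 13.1 and 10.99 at D7. In the other arrays every D7 EDL library lay above every control EDL library.

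After 24 hours of recovery more slow-muscle peaks were called in soleus than in any other phase. R1 was compared with D7, since neither entered the rule. The median change from D7 to R1 in soleus was -0.78 on the log2 scale, beside 0.09 over all peaks. More than 2-fold lower were 162 of the 420 peaks (38.6%) and more than 2-fold higher 58 (13.8%), where 11.6% and 20.7% of all peaks were. Of the 420 peaks 142 were called lower at R1 and 47 higher, where 7.66% of all peaks were called lower and 15.6% higher. All 3 R1 libraries lay below all 3 D7 libraries in 205 peaks and above in 64, compared with 19.48% and 31.11% of all peaks. Against control 168 were called lower and 31 higher at R1 (8.60% and 14.7% of all peaks, 23.3% together), or 102 and 38 without TMM scaling, and 105 peaks were lower and 30 higher in both comparisons. Both comparisons use the same R1 libraries, and the controls chose the peaks, so the calls are not independent of each other. The share of all peaks called in both was not counted. Of the 105 array peaks 66 were called lower than at D7 and 1 higher, against 76 and 46 of the other 315. Every R1 soleus library was sequenced in lane 4 and every D7 soleus library in lane 3. With lane as a block 4 peaks were called between R1 and D7, all higher, and 0 between R1 and control, in a fit where 1 library, soleus U4 at R3, joins lane 4 to the other phases. Lane and phase cannot be told apart in this comparison, and with lane as a block the calls of the peaks named in it below were lost, except those of the pair on chromosome 20. In EDL 0 of 296 peaks were called between R1 and D7, where 0.0107% of all peaks were called in each direction, with a median change of -0.31, 60 peaks at an unadjusted p under 0.05 and 12 called by DESeq2, and without D7 rat U3 1 was called.

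The summed CPM of the array of 36 was 2819.9, 2911 and 2404 in the soleus libraries at D7, 775, 1310.2 and 1172 at R1, 1273, 1586 and 1872 at R3 and 821, 1534 and 2368 at R7. The R1 libraries were all below the D7 libraries, and the R7 libraries spread over a wider range than those of any other soleus group. The array of 18 stood at 1149, 992 and 941 CPM at D7 and 279, 413 and 418 at R1. At R1 the 9 array sums were between 0.29 and 0.992 times their D7 level, the first for the chr12 array and the second for the chr16 array, whose 5′-most peak was not called. Of the 12 peaks opposite to an array 11 were called lower at R1 than at D7 and 0 higher, where 7.66% of all peaks were called lower and 15.6% higher. Each of the 12 overlaps a peak of its array on the other strand, so these are not independent of the array peaks. Their soleus means at R1 were low, from 1.02 to 8.41 CPM. The 11 include the 3 largest falls with separate groups, chr15:33614994-33615057 (plus strand), chr2:88126656-88127453 (plus strand) and chr15:33615135-33615229 (plus strand). chr2:88126656-88127453 held 42.6, 16.1 and 62.4 CPM at D7 and 3.81, 3.85 and 2.6 at R1 (log2 fold change -3.72 ± 0.95 (SE), adjusted p = 0.00534), and chr15:33615135-33615229 33.8, 19.2 and 26.2 and 4.77, 0.514 and 1.06 (log2 fold change -3.72 ± 1.37 (SE), adjusted p = 0.0394). The calls of chr15:33614994-33615057 and chr15:33615135-33615229 were lost without D7 rat U1 or U3 or R1 rat U20 or U21, and with lane as a block these 3 peaks were higher at R1, with log2 fold changes of 2.96, 0.18 and 3.14 in the order named.

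The largest rises at R1 lay at peaks outside the arrays. chr20:2699756-2701913 (minus strand) held 27.1, 67.7 and 47.3 CPM at D7 and 7456, 1131 and 2289.7 at R1 (log2 fold change 6.23 ± 0.77 (SE), adjusted p = 2.07e-05), and was back at 39.6, 58.1 and 38.3 at R3. In EDL it held 18.9, 9.05 and 13.3 CPM at D7 and 5.28, 1.19 and 3.97 at R1. chr20:4877374-4879965 (minus strand) is its near copy, with tag numbers within 1.39% of it over the libraries, so the split of reads between these 2 peaks is uncertain. chr13:109787846-109787925 (minus strand) was the next, with 2.17, 8.85 and 5.55 CPM at D7 and 714, 128 and 169.6 at R1 (log2 fold change 5.89 ± 1.00 (SE), adjusted p = 0.000293), where rat U18 was the highest, as it was at the pair on chromosome 20. chr8:55178466-55179112 is the only 1 of the 10 highest peaks that was called higher. It held 5257, 4770.5 and 5164 CPM in control soleus, 2785, 3432 and 2289.5 at D7, 30692, 27438 and 17896 at R1 and 7321, 4504 and 4181 at R3 (log2 fold change 3.08 ± 0.40 (SE), adjusted p = 3.22e-05 for R1 against D7). This call held without TMM scaling and without any 1 of the 6 libraries, but was lost with lane as a block. Without the 10 highest peaks, the share of soleus tags in the slow-muscle peaks was 2.64% ± 0.285 at D7 and 3.74% ± 0.661 at R1 (SD, n = 3).

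Both muscles of the R1 rats were sequenced in lane 4, so their comparison lay within 1 lane. There the median log2 ratio of soleus to EDL was 1.90, 2.35 and 1.88 in rats U18, U20 and U21, beside 0.07, 1.04 and 0.62 over all peaks. Over all 13 later rats with both libraries in 1 lane it ran from 1.68 in rat U1 to 2.93 in rat U2. In these 2 rats the median over all peaks was 0.16 and 0.89. Whether the step from D7 to R1 was unequal in the 2 muscles was tested on its own. It was called in 57 of the 420 peaks, 42 with a larger rise or smaller fall in soleus and 15 the other way, where 9.85% and 5.49% of all peaks were called. The 42 are 10% of the slow-muscle peaks, close to the share over all peaks. All 420 peaks were tested, of which 296 passed the filter on low counts in EDL alone. The others entered the test through soleus, where the rule had chosen them to be high, and the calls were not counted among the 296 apart. The largest differences among the named peaks were at chr20:2699756-2701913 (log2 fold change 8.0 ± 0.88 (SE), adjusted p = 1.68e-07), its copy, chr8:81963512-81963882 (log2 fold change 6.67 ± 1.16 (SE), adjusted p = 0.000173), chr13:109787846-109787925 (log2 fold change 6.38 ± 1.18 (SE), adjusted p = 0.000378) and chr15:4069082-4069615 (log2 fold change 6.32 ± 0.95 (SE), adjusted p = 2.79e-05), and chr8:55178466-55179112 was also called (log2 fold change 3.65 ± 0.61 (SE), adjusted p = 0.000102). The 15 were 2 without both libraries of rat U3, 5 without those of U21 and 6 without those of U20. Without TMM scaling the counts were 44 and 7, and with lane as a block 48 peaks were called. Of the 105 array peaks, 63 of which passed that filter in EDL, 4 were called with a larger fall in soleus and 1 with a larger rise.

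Fewer peaks were called in soleus at R3 and R7 than at R1. At R3 11 peaks were called lower and 0 higher (0.437% and 1.22% of all peaks, 1.66% together), with 124 at an unadjusted p under 0.05 and 5 called higher by DESeq2. At R7 21 were lower and 8 higher (1.37% and 2.81%, 4.19% together). The median change was -0.37 at R3 and -0.44 at R7, or -0.37 to -0.08 and -0.32 to -0.21 against control rats kept out of the choice. Over all peaks the median was 0.12 at R3 and 0 at R7, or 0.04 to 0.22 and -0.04 to 0.09 against those rats. With lane as a block 0 were called at either. The R3 count was 0 without control U6, control U8 or R3 rat U4, 5 without control U7, 4 without R3 rat U5 and 1 without U16. The R7 count was 7 without control U6, 9 without control U7, 6 without R7 rat U12, 8 without U13 and 108 without U19. Without rat U19 the 108 were 91 lower and 17 higher. Rat U19, the only R7 rat whose soleus library was sequenced in lane 6, held the highest of the R7 sums of the array of 36 given above.

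Which base was used most inside a peak was followed apart from the level. From the deposited single-base start positions, the most used start of a peak was found in each group with at least 50 tags there. In all 420 peaks control soleus had that many tags, and the most used start held 24.1% of a peak's tags in the median, against 22.8% in other peaks. In the later soleus groups this start was the same base as in control soleus in 71.8% (R1) to 83.3% (D7) of the peaks with enough tags, and in other peaks in 74.1% to 81.4%. In the EDL groups 119 to 289 of the 420 peaks had enough tags, and the start was the same as in control soleus in 74.4% to 80.5% of them. In other peaks it was the same in 73.4% to 80.2%, so this is not particular to the slow-muscle peaks. At chr1:72889011-72889390 base 72889267 held 93.5% to 95.4% of the tags in the soleus libraries and 91.9% to 95.6% in the EDL libraries. At chr12:39958724-39959368 base 39959086 held 58.6% to 66.3% in soleus and 60.3% to 67.3% in EDL. chr8:55178466-55179112 varied more, with 28.1% to 59.9% at base 55178826 in soleus and 36.7% to 63.3% in EDL. The ranges of the muscles overlapped in all 3 of these peaks.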

How the data were processed

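CAGE libraries were made from 42 muscle samples (soleus and EDL of 21 rats) by the no-amplification non-tagging method and sequenced on 6 lanes. Per the study's methods the authors aligned reads to Rnor_6.0 with STAR and at first allowed up to 20 loci per read, whereas the submitters' processing notes list BWA, HISAT2 and Trimmomatic 0.38 and no STAR. Which aligner and multi-mapping setting made the counts is therefore not settled. The authors deposited tag counts per start position and per peak, where a peak is a cluster of start positions. The authors' 42 normalized columns and the 2 mitochondrial peaks were not used as members or values, and the mitochondrial rows stayed in the column sums. Summed tags in peaks ranged from 1696341 to 22116123 per library with a median of 7968030, and 63.8% to 90.4% of the tags at start positions fell in peaks. Low peaks in the shallow libraries therefore carry counting error in addition to the spread between rats.

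Groups came from the labels, with 3 rats each. CPM is the deposited count over the column sum times 1000000, and medians used log2 of mean CPM plus 1. Counts were tested over all peaks with edgeR 4.0.16 (filterByExpr, TMM, quasi-likelihood F test, two-sided, Benjamini-Hochberg adjustment) in R 4.3.3, within a muscle over its 21 libraries and between muscles over all 42. The SE printed with a log2 fold change is its absolute value over the square root of the F statistic. It was thus taken back from the test and not estimated apart from it. Summaries used Python 3.11.15. In counts simulated from these libraries with a log2 change of 2.5, 86.4% of 199 changed peaks were found for soleus R1 against D7 over 9837 peaks, and 79% and 64% of 200 for soleus against EDL at D7 and for the difference between the muscles over 9923. The members and lists were chosen with earlier results of these data known. Peaks named were the 10 highest in control soleus, the 3 largest rises and falls among calls at R1 against D7 with separate groups and at least 5 CPM, the 3 smallest and largest mean ratios after control, the 3 on each side of the threshold, and, at D7, the 3 that fell most in soleus and the 3 that rose most in EDL (the last sets from at least 10 CPM in control soleus).

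Both muscles came from the same rat, so the rat pairs the libraries. The deviations of the 2 libraries of a rat from their group means correlated over peaks with r from -0.31 to 0.56, with a median of 0.25 and 15 of 21 over 0.1. Alternatives were DESeq2 1.42.0, DESeq2 size factors, no TMM, no filter, lane as a block, the rat as a block, each library left out, controls kept out of the choice, other pseudocounts, TMM-scaled CPM and another threshold. Leaving out the 16 peaks that rest on 1 control soleus library was chosen after seeing the data. Gene annotation, sequences, cell type markers and promoter motifs of this assembly were not used here.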

Additional observations from a re-analysis of the deposited data

Results flagged for a closer look

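The change from D7 to R1 differed between soleus and EDL in 57 of the 420 slow-muscle peaks by the test of the difference itself (edgeR quasi-likelihood test, adjusted p under 0.05 and a difference over 2.38-fold), against a background of 9.85% of all peaks called toward soleus and 5.49% toward EDL (15.3% together). Of the 57, 42 were called toward soleus (10% of the 420) and 15 toward EDL (3.57%). The first share is close to that over all peaks and the second is below it, so the count is not particular to the slow-muscle peaks. The log2 difference, as the soleus change minus the EDL change, was 8.0 at chr20:2699756-2701913, 7.77 at its near copy chr20:4877374-4879965, 6.67 at chr8:81963512-81963882, 6.38 at chr13:109787846-109787925, 6.32 at chr15:4069082-4069615 and 3.65 at chr8:55178466-55179112. In each of these 6 peaks the soleus mean was higher at R1 than at D7 and the EDL mean lower. Of the 420 peaks 296 passed the filter on low counts in EDL alone, and the others entered this test through soleus.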

How the results depend on the processing

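The number of peaks called in either direction between soleus and EDL in the later phases stayed within 1.5 times under every alternative run, while the small numbers called lower moved further, as given above. With the rat as a replicate block the counts were 302, 317, 289, 295, 337 and 338 from D1 to R7 in order, and 69 for the difference between the muscles, none of them moved by over 1.5 times. No other count was run with this block. Leaving out 1 library gave 249 to 277, 272 to 299, 225 to 266, 224 to 296, 271 to 314 and 310 to 340 in these phases, and 40 to 52 for the difference. The comparisons that share lane with phase did not hold: with lane as a block, soleus against control gave 1 at D1 and 0 at D3, D7, R1, R3 and R7, EDL gave 2 at D1 and 0 at D3 and D7, and soleus R1 against D7 gave 4. In that last comparison 4 named peaks reversed, to log2 fold changes of 2.96 at chr15:33614994-33615057, 3.14 at chr15:33615135-33615229, 0.12 at chr1:72889011-72889390 and 0.18 at chr2:88126656-88127453. In these fits 1 library joins lane 1 or lane 4 to other phases. DESeq2 called 60 at D1, 27 at D3, 21 at D7, 31 at R3 and 58 at R7 in soleus against control, 56 at D7, 7 at R1 and 11 at R3 in EDL, and 12 for EDL R1 against D7. DESeq2 size factors gave 7 in soleus at R3. Without TMM factors the counts were 4 in soleus at R3, 48 in EDL at D7 and 1 for EDL R1 against D7, and the median over all peaks was up to 0.33 in the comparisons with control and up to 0.52 between the muscles, where with TMM it was at most 0.062 and 0.10. Without 1 library, soleus against control gave 13 to 34, 0 to 6, 0 to 2, 154 to 192, 0 to 5 and 6 to 108 from D1 to R7, the last without rat U19. EDL against control gave 11 to 32, 4 to 52 (the last without rat U11) and 4 to 21 at D1, D3 and D7, 0 to 0 at R1, 0 to 9 at R3 (9 without rat U5) and 0 to 0 at R7. R1 against D7 gave 148 to 190 in soleus and 0 to 1 in EDL. The medians of soleus against control with TMM-scaled CPM were -0.32, -0.36 and -0.17 during unloading, -1.08 at R1 and -0.50 at R3, and with control rats kept out -0.32 at D1, -0.11 at D3 and -0.20 at R3. With a pseudocount of 5 CPM they were -0.30 in soleus at R3 and 0.20, 0.37, 0.20, 0.079 and 0.11 in EDL at D3, D7, R1, R3 and R7, and with 0.5 CPM 0.42 in EDL at R7. A threshold of 8 gave 208 peaks. For single peaks 284 values stayed on their side of the threshold, 64 lost their call and 4 reversed. The causes were not tested.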
